A study of Macaca fascicularis with 23 samples.

Results

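Nuclear genes for the respiratory chain, the ATP synthase and the mitochondrial ribosome were followed in cynomolgus monkey (Cm) pluripotent stem cells (PSCs). They were taken by name: every gene whose Name began with NDUF, UQCR, COX4, COX5, COX6, COX7, COX8, ATP5, MRPL or MRPS, and SDHA to SDHD. This gave 28 of the 8415 genes analysed here. They were 5 genes of complex I (NDUFA5, NDUFB4, NDUFB5, NDUFS5 and NDUFV3), SDHC of complex II, NDUFA4, which is now placed in complex IV, 5 genes of complex V (ATP5F1, ATP5I, ATP5J, ATP5J2 and ATP5O), 8 of the large mitoribosomal subunit and 8 of the small one. A further 18 genes of the same families carried only a LOC number as their Name and were recognised by gene ID. They are counted apart and include both genes of complex III seen here, UQCRC1 and UQCRH. The study also followed COX6B1, COX7A1 and COX8C by RT–qPCR, and these were not analysed here, nor were the subunits encoded in mitochondrial DNA.

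The respiratory chain passes electrons from NADH and succinate to oxygen through complexes I to IV and pumps protons across the inner mitochondrial membrane, and complex V (ATP synthase) uses that gradient to make ATP. The mitoribosome translates the few proteins encoded in mitochondrial DNA, all of them core subunits of complexes I, III, IV and V, whereas its own proteins are made in the cytosol and imported. Primed primate PSCs are known for a mainly glycolytic metabolism, and naïve PSCs for using respiration as well, which is the question behind the comparison of media.

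Each of 7 cell lines was grown in 3 media, with 1 SC3-seq library per line and medium, and somatic cells cultured from the liver and the stomach of 1 female foetus gave 1 library each. SC3-seq reads the 3′ ends of cDNA amplified from, here, 1 ng of total RNA. The lines were the ESCs CMK6, TRSK and CMK9 and the iPSCs L3 and L6 (made from the liver cells) and S6 and S12 (made from the stomach cells). The primed state was held in bFGF/KSR medium. In the naïve-like state, cells carrying Dox-inducible hKLF2 and hNANOG on PiggyBac vectors grew in K5cLD, a medium with LIF, Dox and 5 small molecules (CHIR99021, forskolin, kenpaullone, SB590885 and Gö6983). The differentiated state was reached by moving these cells to K5c, without LIF and Dox. The 4 iPSC lines trace back to 1 animal, and effects of the medium, the transgenes and Dox cannot be told apart.

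The values are RPM, read numbers scaled to the total of each library, and the smallest step of each library gave 860533 to 7986136 reads in PSC libraries, 1703685 for liver and 3083565 for stomach. Because library numbers in the labels run by condition, a preparation batch, if there was one, cannot be told apart from the medium. Pluripotency genes separated PSCs from somatic cells. The summed RPM of 8 such rows was 971 to 2582 (primed), 1776 to 2765 (naïve-like) and 1188 to 2290 (differentiated), against 1.76 in liver and 0.973 in stomach. POU5F1 stood at a mean log2(RPM + 1) of 7.68 and 8.18 in primed and naïve-like cells and 4.04 in differentiated cells, while SOX2 stood at 8.68, 8.61 and 8.71. In the liver library all 5 hepatocyte markers present (AFP, AHSG, ALB, APOA2 and TF) were at 0, and COL1A2, a fibroblast collagen, was at 4832 RPM, against 4506 RPM in the stomach library and at most 579 RPM in PSCs. COL1A2, the 1 gene analysed here of 10 fibroblast markers, also moved with the media: it was lower in naïve-like than in primed cells in 7 of 7 lines (difference -1.92, adjusted p = 0.115, and 0.000308 with the line as a block) and higher in differentiated than in naïve-like cells in 7 of 7 (1.17, adjusted p = 0.410, and 0.012 with the block). The part of such cells in the results was not tested. The stomach library held CLDN18, TFF1 and TFF2 but PGC was at 0.

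All 28 genes were expressed, by a log2(RPM + 1) above 4 in at least 1 PSC library, and 27 of them in all 21. SDHC, the membrane anchor of succinate dehydrogenase, was the exception, with 12 to 29.2 RPM over the 21 libraries and as few as 15.5 reads. The most abundant member of each group was NDUFA4 (mean 1009 RPM over PSC libraries), the stalk subunit ATP5O (526 RPM), NDUFS5 (501 RPM), MRPS33 (171 RPM) and MRPL14 (168 RPM). How well RPM compares between genes was not tested, so beyond this ranking levels are compared within a gene. The MRPL2 row needs care: its gene ID belongs to CUL7, a neighbour of MRPL2, in the RefSeq annotation, so it is uncertain which of the neighbours was counted. For 12 of the 28 genes the reads were whole numbers in all 23 libraries. SDHC was whole in 0 libraries, ATP5J2 in 3 and NDUFA4 in 7. The cause of the fractional reads was not tested, and these values are uncertain.

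Of the 8 genes called on naïve-like conversion 7 were mitoribosomal, where 16 of the 28 genes were. Of the 28 genes, 7 rose and 1 fell, a share of 28.6% called against a background of 19.2% of all 2776 expressed genes (11.1% higher and 8.18% lower). The 7 that rose were MRPL2, MRPL14, MRPL37, MRPL9, MRPS10, MRPS17 and the complex I subunit NDUFB5, and the gene that fell was MRPS14. The median difference over the 28 was 0.20 on the log2 scale against 0.06 over all expressed genes. All but 4 of the 28 had a mean log2(RPM + 1) above 6, and among the 757 genes that abundant 23% were called. In all 7 lines 5 of the 28 were higher and 0 lower, where 9.73% and 6.3% of all genes were, and 1 had groups that did not overlap, where 4.07% did. Calls here and below are limma adjusted p below 0.05 over all 2776 genes, with the 21 PSC libraries in 1 fit. With libraries centred on their median, 4 members rose and 1 fell, and the split over all genes turned from 307 higher and 227 lower to 218 higher and 261 lower. NDUFB5, MRPL9 and MRPS17 then no longer passed (limma adjusted p = 0.138, 0.087 and 0.0903).

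Among the 8 large-subunit genes, 4 rose, 0 fell, and the median difference was 0.34. MRPL2 had 36.3, 48 and 53.8 RPM (lowest, median and highest) in primed libraries and 66.3, 75.1 and 102.7 in naïve-like ones. The groups did not overlap, and all 7 lines were higher. The difference was 0.70 ± 0.13 (SE) on the log2(RPM + 1) scale, or 1.63-fold (adjusted p = 0.000559). MRPL14, which lies where the ribosomal subunits meet, had 97.4, 123.7 and 188.1 RPM in primed and 145.7, 200.5 and 220.9 RPM in naïve-like libraries. All 7 lines were higher, and the overlap came from the primed TRSK and CMK9 libraries at 184.3 and 188.1 RPM (difference 0.52 ± 0.13, adjusted p = 0.0081). MRPL37 had 103.6, 151.7 and 181.8 RPM in primed and 169.3, 197.4 and 235.4 RPM in naïve-like libraries (difference 0.46 ± 0.13, adjusted p = 0.0172). Its 1 exception was CMK9, which held both the highest primed and the lowest naïve-like value. MRPL9 had 104.6, 134.5 and 195.0 RPM against 156.3, 169.3 and 203.2 RPM (difference 0.32 ± 0.11, adjusted p = 0.0373), and again CMK9 alone was lower. The other 4 (MRPL1, MRPL20, MRPL24 and MRPL39) had differences of 0.11 to 0.36 and did not pass the test. MRPL20, at 0.36, passed with the line as a block (adjusted p = 0.0301, against 0.175).

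Among the 8 small-subunit genes 2 rose and 1 fell, with a median difference of 0.25. MRPS10 had 75.5, 84.3 and 133.2 RPM in primed and 99.7, 127.1 and 140.1 RPM in naïve-like libraries. It was higher in 6 of 7 lines, CMK6 being the primed library at 133.2 RPM (difference 0.45 ± 0.12, adjusted p = 0.0104). MRPS17, a homologue of a bacterial ribosomal protein, had 91.1, 117.6 and 145.1 RPM against 131.3, 152.0 and 178.4 RPM. It was higher in 5 of 7 lines and lower in CMK9 and S6 (difference 0.37 ± 0.12, adjusted p = 0.0312). MRPS14 went the other way, from 145.3, 179.4 and 193.5 RPM to 115.6, 147.7 and 164.8 RPM. It was lower in 5 of 7 lines, with L6 and S12 nearly level (difference -0.31 ± 0.10, adjusted p = 0.0411). MRPS18A and MRPS18C were higher in all 7 lines without passing the test (differences 0.24 and 0.39, adjusted p = 0.159 and 0.098). MRPS21, MRPS24 and MRPS33 had differences of 0.01 to 0.26.

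**Figure D1:**
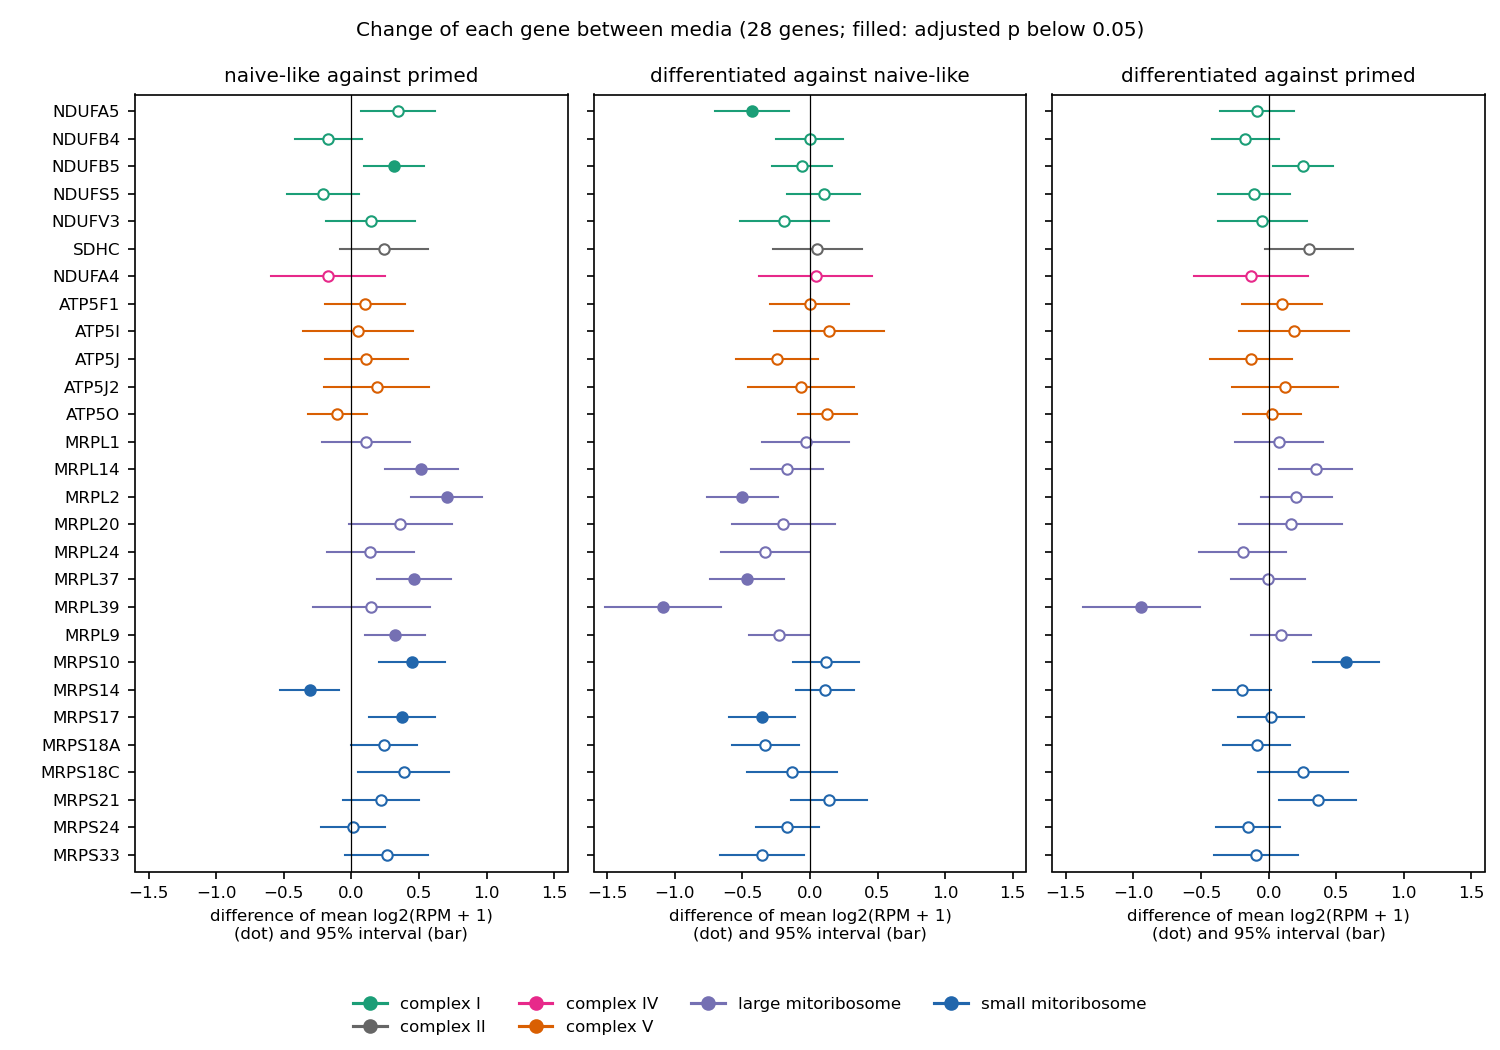
Difference between media for each of the 28 genes found by Name (circles), in units of log2(RPM + 1), with bars for the 95% interval and fills for adjusted p below 0.05. Filled symbols in the naïve-like against primed panel lie to the right for 7 genes and to the left for MRPS14 alone. In the middle panel all 5 filled symbols lie to the left, led by MRPL39 at -1.09. In the panel on the right MRPL39 and MRPS10 alone are filled.

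The 12 respiratory and ATP synthase genes showed 1 rise. NDUFB5, an accessory subunit of complex I, had 312.7, 363.0 and 522.4 RPM in primed and 455.2, 463.7 and 553.5 RPM in naïve-like libraries. All 7 lines were higher, CMK6 by the least (522.4 to 531.1 RPM; difference 0.32 ± 0.11, adjusted p = 0.0412). The NDUFB5 call was lost with libraries centred on their median (adjusted p = 0.138). It was also lost without the expression filter, without the mean-variance trend, with array weights and with 2 conditions in the fit. NDUFA5, also an accessory subunit, had a difference of 0.34 ± 0.13 and an adjusted p of 0.071, which became 0.0204 with the line as a block. NDUFB4 and NDUFS5 had differences of -0.17 and -0.21, and NDUFV3 of 0.14. No complex V gene passed the test. Differences there ran from -0.10 (ATP5O, 95% interval -0.32 to 0.11) to 0.19 (ATP5J2, -0.20 to 0.58), with ATP5F1 at 0.10, ATP5J at 0.11 and ATP5I at 0.05, so a change of the size seen in MRPL14 lies outside the ATP5O interval but inside that of ATP5J2. SDHC (0.24) and NDUFA4 (-0.17, interval -0.59 to 0.25) did not pass the test either. Whether respiratory and mitoribosomal genes differ in their response was not tested.

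These calls rest on several lines. MRPL2 and MRPL14 passed the test with each line left out in turn, with adjusted p of at most 0.00366 and 0.0405. MRPS10 lost it without L3 (0.0541) and MRPL37 without S6 or S12. NDUFB5, MRPS14, MRPL9 and MRPS17 lost it without most lines. The count of calls was 7 without CMK9, 5 without CMK6, TRSK, L6 or S12, 4 without S6 and 3 without L3.

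Among the genes recognised by gene ID, of the 17 expressed, 6 rose and 0 fell. That is 35.3% called, where 19.2% of all expressed genes were called (11.1% higher). The median difference was 0.24 against 0.06 over all expressed genes. COX7B2, a testis isoform of a complex IV subunit, was at 0 in most libraries and at most at 6.77 RPM and was not tested. MRPS22 showed the largest rise of all 45 tested genes, from 42, 59.3 and 68.3 RPM to 78.4, 110.5 and 135.9 RPM. Its groups did not overlap (difference 0.90 ± 0.17, 1.86-fold, adjusted p = 0.000757). MRPL32, MRPL55 and MRPS18B rose by 0.57, 0.63 and 0.59 in all 7 lines (adjusted p = 0.00521, 0.00958 and 0.00799), and these 4 genes passed with each line left out. MRPS15 rose by 0.34 (adjusted p = 0.0364), but lost the call with centring (0.111) and without L3, L6, CMK9, S6 or S12. MRPL18, at 0.55, had an adjusted p of 0.0503, and with the line as a block 0.00563. NDUFAF3, a complex I assembly factor at 0.56, had 0.15, and 0.0457 with the block. In the respiratory chain UQCRC1, a core subunit of complex III, was the 1 gene called. It had 221.6, 255.1 and 273.8 RPM against 276.3, 295.6 and 315.3 RPM without overlap (difference 0.24 ± 0.07, adjusted p = 0.0227). Its adjusted p was above 0.05 with centring (0.0834) and without L6 or S6 (at most 0.0815). Over both sets, of 45 genes 14, or 31.1%, were called, 13 of them higher, against the same 19.2% of all expressed genes. The 25 mitoribosomal genes held 12 of these calls (48%).

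On removal of LIF and Dox, MRPL2, MRPL37 and MRPS17, of the 7 genes that had risen, fell. Of all 28 genes 0 rose and 5 fell (17.9%, against 14.1% of all genes called, 6.41% higher and 7.71% lower), and 8 were lower in all 7 lines, where 10.8% of all genes were. None was higher in all 7, where 9.11% of all genes were, and 1 had groups that did not overlap, where 4.36% did. The median difference was -0.15 against -0.02 over all genes. Those that fell were MRPL39, MRPL2, MRPL37, MRPS17 and NDUFA5. This comparison and the first share the 7 naïve-like libraries, so a naïve-like value that is high by error enters both with opposite sign, and a turn of direction in genes called for high naïve-like values is no independent result. Of the other genes that had risen, MRPL14, NDUFB5 and MRPL9 stood at -0.17, -0.06 and -0.23 and MRPS10 at 0.12, and none of these passed the test.

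MRPL39, a large-subunit protein that resembles threonyl-tRNA synthetases, changed most. Its naïve-like libraries had 48.8, 74.3 and 95.9 RPM and its differentiated libraries 17.0, 37.1 and 55.2 RPM. All 7 lines were lower, and the 1 overlap was CMK6, at 55.2 RPM, above the naïve-like L6 at 48.8 RPM. The difference was -1.09 ± 0.21, or 0.47-fold (adjusted p = 0.0010), and it passed with each line left out (at most 0.00627). The lowest value, in S6, rests on 16 reads. MRPL2 had 42.4, 52.6 and 66.1 RPM in differentiated libraries. That range did not overlap the naïve-like one, but only just, at 66.1 against 66.3 RPM (difference -0.50 ± 0.13, adjusted p = 0.00966, and 0.0536 without CMK6). MRPL37 had 112.3, 151.7 and 192.3 RPM, lower in all 7 lines (-0.47 ± 0.13, adjusted p = 0.0196), and lost the call without CMK6 or S6. NDUFA5 had 137.9, 151.5 and 174.0 RPM in naïve-like and 76.3, 112.8 and 147.3 RPM in differentiated libraries. All 7 lines were lower and S12 alone reached into the naïve-like range (-0.43 ± 0.13, adjusted p = 0.0325). The adjusted p of NDUFA5 was above 0.05 with any line other than S12 left out. MRPS17 had 99.9, 119.4 and 147.7 RPM (-0.36 ± 0.12, adjusted p = 0.0466), and its adjusted p was above 0.05 with each of the 7 lines left out. MRPL9 and MRPS24 were lower in all 7 lines as well, by 0.23 and 0.17, and did not pass the test. MRPS18A, lower in all 7 lines (-0.33), had an adjusted p of 0.0658, which became 0.0324 with the line as a block. The count of calls fell to 1 without CMK6, 2 without S6, 3 without L3, TRSK or L6, and was 4 without CMK9 or S12.

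The complex V genes ran from -0.24 (ATP5J) to 0.14 (ATP5I), and SDHC and NDUFA4 stood at 0.06 and 0.04, none of them called. Among the 17 expressed genes found by gene ID 6 fell and 0 rose (35.3% called, against 14.1% of all genes, 7.71% lower). MRPS22 went to 37, 66.3 and 85.0 RPM (-0.79 ± 0.17, adjusted p = 0.0023, at most 0.0124 with any line left out). UQCRC1 went to 229.0, 244.4 and 261.9 RPM, below all naïve-like libraries (-0.26 ± 0.07, adjusted p = 0.0151). MRPL32 and MRPL55 fell by 0.49 and 0.57, each in 6 of 7 lines. UQCRC1 lost its call without L3 or L6 and MRPL32 without CMK6 or L6. MRPL55 lost it with centring and without CMK6, TRSK, L6 or CMK9. MRPL18 (-0.47) and MRPL47 (-0.33) did not pass the test, but did with the line as a block (adjusted p = 0.0167 and 0.0203, against 0.113 and 0.0819). The iron-sulphur subunit SDHB of complex II fell by 0.36 (adjusted p = 0.032), and lost the call without CMK6, L3, L6 or S6. It had not been called in the first comparison, where it stood at 0.18.

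**Figure D2:**
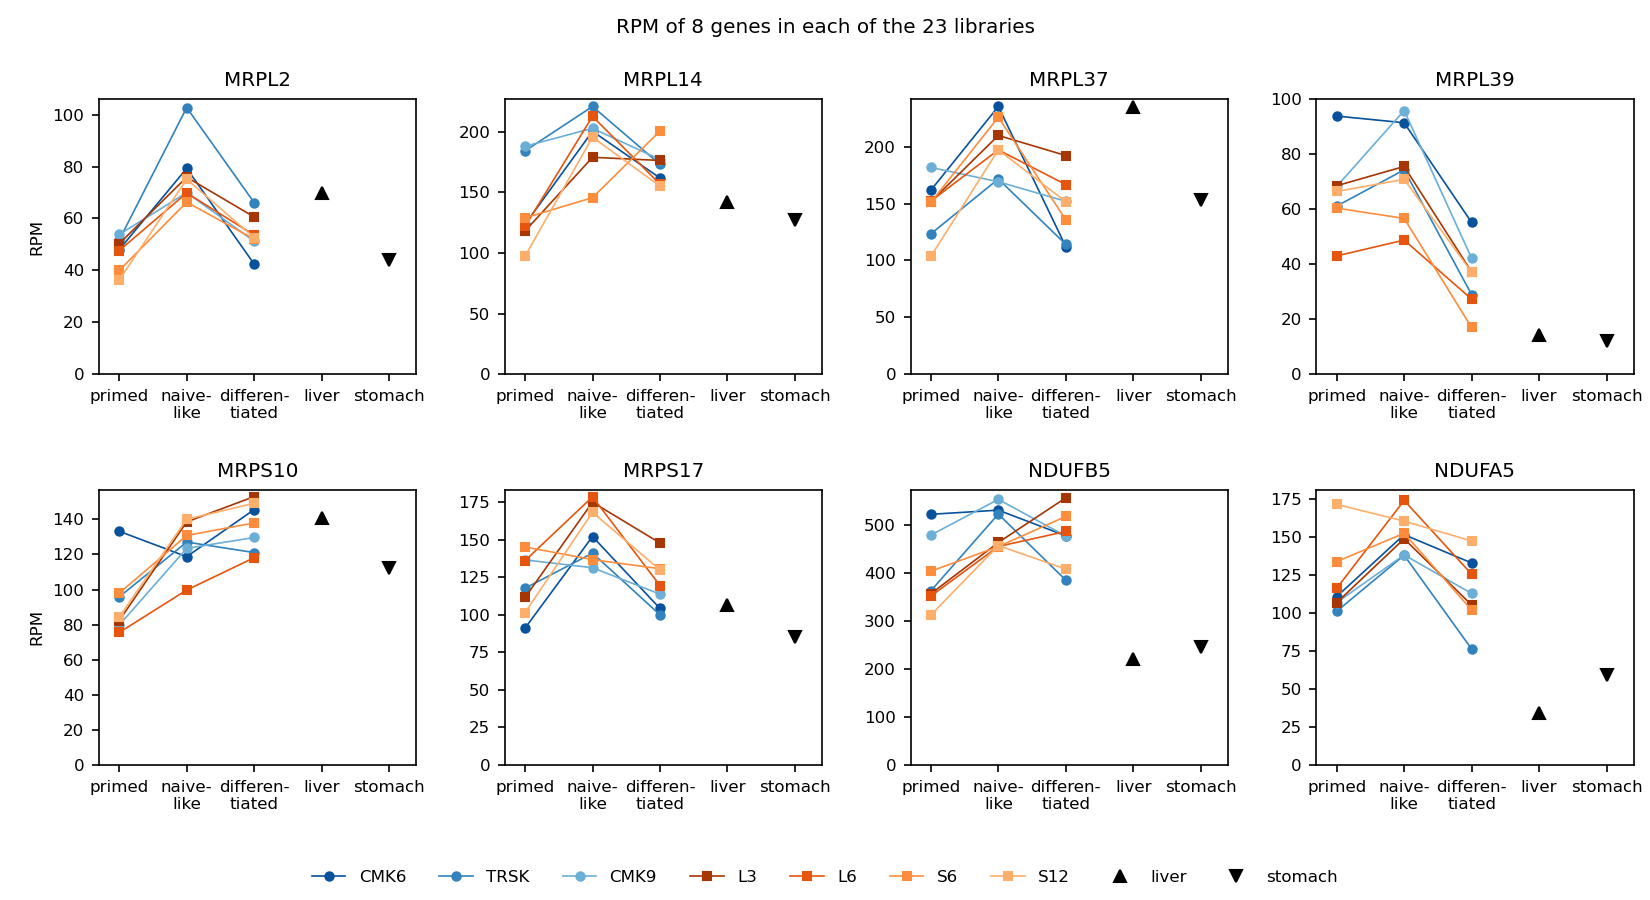
RPM of 8 genes in each library, with the points of a cell line joined across the 3 media (circles, ESC lines; squares, iPSC lines) and liver and stomach as triangles. MRPL2 is highest in naïve-like libraries in every line, MRPL39 drops in differentiated libraries in every line, to 17.0 RPM in S6, and MRPS10 stays up in differentiated libraries at 118.2 to 153.0 RPM.

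Between differentiated and primed cells 2 of the 28 genes were called. 1 gene rose and 1 fell, or 7.14%, against 13.4% of all genes (6.27% higher and 7.13% lower), and the median difference was 0.02 against 0.05. In all 7 lines 1 was higher and 1 lower, where 7.64% and 6.88% of all genes were, and 0 of 28 had groups that did not overlap, where 3.24% did. Genes not called are not shown to be equal: the mean over the 28 moved by -0.36 (TRSK) to 0.22 (S12). MRPS10 remained high, at 118.2, 138.0 and 153.0 RPM against 75.5, 84.3 and 133.2 RPM in primed libraries. All 7 lines were higher, and the primed CMK6 library at 133.2 RPM made the overlap (difference 0.57 ± 0.12, 1.48-fold, adjusted p = 0.00204). MRPL39 was at 17.0, 37.1 and 55.2 RPM against 43, 66.4 and 93.8 RPM, lower in all 7 lines (-0.94 ± 0.21, 0.52-fold, adjusted p = 0.00343). Both passed with each line left out, at adjusted p of at most 0.0171 and 0.0161. Without CMK9 3 were called, MRPL14 being added. With the line as a block 4 were called, and the same number without TRSK. In both cases the added genes were MRPL14 and MRPS21, which stood at 0.35 and 0.36 in the fit without a block (adjusted p = 0.0765 and 0.0801) and at 0.0423 and 0.0429 with it. MRPL2, the gene with the largest rise on conversion among the 28, was at 0.20 ± 0.13 (adjusted p = 0.295). Of the genes found by gene ID 0 of 17 were called by limma, with 3 at an unadjusted p below 0.05 and 3 called with the block. Of these NDUFAF3 had the widest spread, 23.2, 38.2 and 94.8 RPM in primed and 34.0, 83.4 and 99.9 RPM in differentiated libraries (0.77 ± 0.27, adjusted p = 0.0607, and 0.0104 with the block).

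Among the groups of genes found by Name, the average of the large mitoribosomal subunit moved the same way in every line, up on conversion and down on withdrawal. The mean log2(RPM + 1) of its 8 genes was 6.63 ± 0.15 (SD, n = 7 lines) for the primed state, 6.98 ± 0.10 for the naïve-like state and 6.60 ± 0.09 after differentiation. Conversion moved it by 0.19 (CMK9) to 0.62 (S12), up in 7 of 7 lines, and withdrawal by -0.57 (TRSK) to -0.24 (L3), down in 7 of 7. Taking medians of the 8 genes instead, the change on withdrawal was -0.20 rather than -0.38, and that between differentiated and primed libraries turned from -0.03 to 0.12. The 8 small-subunit genes had means of 6.81 ± 0.15, 7.02 ± 0.05 and 6.89 ± 0.16. Here conversion moved TRSK by 0.00, CMK9 by 0.04, CMK6 by 0.06 and S6 by 0.12, but L6, L3 and S12 by 0.33, 0.42 and 0.46. Withdrawal lowered the mean in 5 of 7 lines. With the genes found by gene ID added, the small subunit (12 genes) also rose on conversion in 7 of 7 lines (0.27 ± 0.15, SD). It fell on withdrawal in 7 of 7 (-0.17 ± 0.10). The large subunit so extended (13 genes) changed by 0.36 ± 0.14 and -0.38 ± 0.15, again in 7 of 7 lines each.

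The means over complex I and complex V genes moved on conversion by 0.08 ± 0.13 and 0.07 ± 0.18 (SD over lines). These means join differences of both signs. In complex I 3 genes were positive and 2 negative, with NDUFB5 at 0.32 and NDUFS5 at -0.21. In complex V 4 were positive and 1 negative. Complex I stood at 7.92 ± 0.12, 8.01 ± 0.09 and 7.89 ± 0.18. L6 rose from primed to naïve-like by 0.37, the other lines changed by -0.03 to 0.13, and on withdrawal it was lower in 6 of 7 lines (-0.12 on average), by 0.47 in TRSK. Complex V stood at 7.62 ± 0.15, 7.69 ± 0.14 and 7.68 ± 0.31. In differentiated libraries it spread widely, from 7.19 in CMK6 to 8.0 in S6. Against primed, the complex V change was -0.47 in TRSK, -0.16 in CMK6 and 0.12 in CMK9, but 0.00, 0.26, 0.32 and 0.36 in L3, L6, S12 and S6. This split was not tested. For complex I the change between differentiated and primed libraries also turned sign, from -0.03 by the mean to 0.14 by the median of its genes. Over all 28 genes the mean was higher in naïve-like than in primed libraries in 7 of 7 lines (0.19 ± 0.12, SD), with TRSK at 0.01, and lower on withdrawal in 7 of 7 (-0.16 ± 0.12). These means describe chosen genes and carry no test. In bulk libraries, fewer cells of a type and less RNA per cell cannot be told apart.

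**Figure D3:**
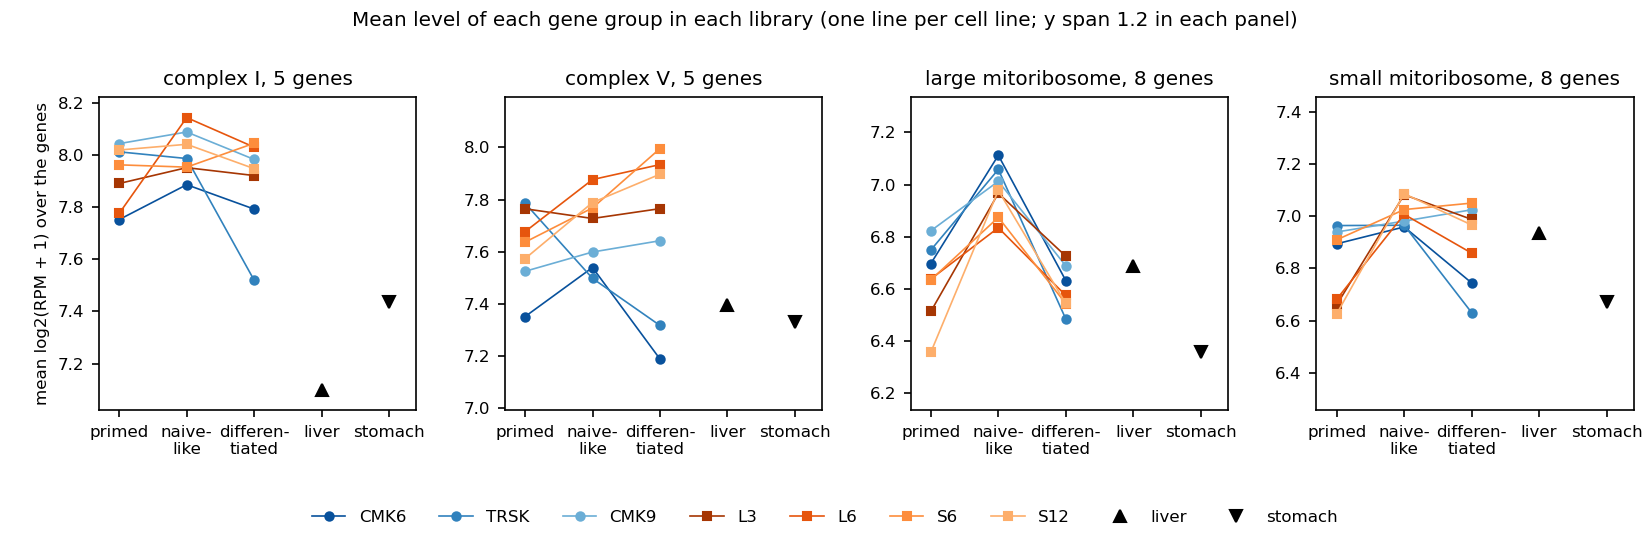
Mean log2(RPM + 1) of 4 gene groups in each library, with the points of a cell line joined across media and the liver and stomach libraries as triangles; each vertical axis spans the same range but starts at another value. The large mitoribosomal subunit peaks in the naïve-like library of all 7 lines, at 6.83 to 7.11, and complex V spreads in differentiated libraries from 7.19 to 8.0. Complex I is lower in liver (7.10) and stomach (7.44) than in any PSC library (7.52 or more).

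ESC and iPSC lines did not differ detectably in their response to conversion. The difference of the response (ESC minus iPSC), tested as an interaction in limma over all 2776 genes, was called for 0 of the 28 genes and 0.0% of all genes. The lowest adjusted p among the 28 was 0.942, and over the alternatives the lowest ran from 0.384 to 0.999. At an unadjusted p below 0.05 there were 2 of 28, MRPS33 and MRPS14. MRPS33 changed by -0.12 on average in the 3 ESC lines (2 up) and by 0.55 in the 4 iPSC lines (4 up), a difference of -0.67 ± 0.27. MRPS14 changed by -0.57 in ESC lines (0 up) and -0.11 in iPSC lines (2 up), a difference of -0.46 ± 0.20. With 3 lines against 4, differences of this size could not be told from the spread after adjustment.

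Of 33 other genes listed for mitochondrial translation (factors and tRNA ligases), 14 were analysed here, and of these 5 rose on conversion and 0 fell. That is 35.7% called, where 19.2% of all expressed genes were called (11.1% higher), and the median difference was 0.28 against 0.06. They were the elongation factor GFM1 (0.67 ± 0.13, adjusted p = 0.0011), the ligases LARS2 (0.60), FARS2 (0.53) and TARS2 (0.60) and the prolyl ligase PARS2 (1.03 ± 0.36, adjusted p = 0.0454). PARS2 was low, with a mean log2(RPM + 1) of 2.80 in primed and 3.83 in naïve-like libraries, both under 4, so its fold is uncertain. GFM1 and LARS2 fell on withdrawal, by 0.72 and 0.54, in 7 of 7 lines each, which is 14.3% called, where 14.1% of all genes were. Between differentiated and primed cells 0 of 14 were called by limma, with 1 at an unadjusted p below 0.05 and 1, VARS2, called with the block (0.55, adjusted p = 0.0252). Of 44 listed assembly factors of the respiratory complexes 10 were analysed here. On conversion 3 of the 10 (30%) rose and 0 fell, with a median difference of 0.35. They were ATPAF1, which helps build the catalytic head of ATP synthase (0.81 ± 0.19, adjusted p = 0.00518), COA6 (0.35), which takes part in copper delivery to complex IV, and HIGD1A (0.34). None of the 10 was called on withdrawal, where 4 had an unadjusted p below 0.05 and 2 were called with the line as a block, and HIGD1A was higher in differentiated than in primed cells (0.43, adjusted p = 0.0126), with COX20 (-0.39) added by the block (adjusted p = 0.019).

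Cytochrome c (CYCS), which carries electrons from complex III to complex IV, rose by 0.79 ± 0.14 on conversion (adjusted p = 0.000365) in 7 of 7 lines. It was still higher than primed in differentiated cells, by 0.59 (adjusted p = 0.00422). It was 1 of 4 electron carrier or nucleotide exchange genes tested, of 27 listed (25%, where 19.2% of all genes were called on conversion), and the others were not called. Of 19 genes listed for the tricarboxylic acid cycle 6 were analysed here. MDH2 (malate dehydrogenase) alone was called (16.7%, against the same 19.2%), with a rise of 0.52 ± 0.12 on conversion (adjusted p = 0.00369). Between differentiated and primed cells it stood at 0.28, called with the block (adjusted p = 0.0322, against 0.121). Of 23 listed transcription and biogenesis factors 4 were tested. Of the 4, 0 were called on conversion by limma, with 2 at an unadjusted p below 0.05 and 2 called with the block. On withdrawal 2 fell (50%, of a list too short to set against the 14.1% of all genes). TFB2M, which starts transcription of mitochondrial DNA, fell by 1.56 ± 0.43 in 7 of 7 lines (adjusted p = 0.0174). Its mean log2(RPM + 1) was 5.11 in naïve-like but 3.56 in differentiated libraries, the latter under 4, so its fold is uncertain. GABPA, a nuclear factor known to act on respiratory genes, fell by 0.67 ± 0.19 in 6 of 7 (adjusted p = 0.0191).

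In the somatic libraries the complex I subunits NDUFA5 and NDUFB5 lay below every PSC library. These are cultured cells and not whole tissue. Liver and stomach cells have 1 library each, so there is no replicate check, and values are set against the range of the 21 PSC libraries. In liver 6 of the 28 genes lay below that range and 1 above it, where 25.9% of 2916 genes expressed in any library lay below and 11.5% above. In stomach 6 lay below and 0 above, where 23.9% and 15.3% of all genes did. The genes below in both were NDUFA5, NDUFB5, ATP5I, MRPL39 and MRPS33, 5 of 28, where 15.5% of all genes were below in both, and 0 were above in both, where 7.27% of all genes were. NDUFV3 was below in liver alone and MRPS17 in stomach alone. For RPM without further scaling, the shares below the range in each somatic library were near those of all genes, and the shares above it were lower.

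NDUFA5 was at 34.0 RPM in liver and 59.0 in stomach against 76.3 or more in every PSC library. NDUFB5 was at 221.9 and 245.2 RPM against 312.7 or more. MRPL39 was at 14.1 and 12 RPM against 17.0 or more, which is 0.23-fold and 0.20-fold of the primed mean. It was the lowest of the 28 against primed cells in both somatic libraries, as it was in differentiated cells. ATP5I, a small membrane subunit of ATP synthase, was at 25.8 and 23.2 RPM against 32.8 or more, and MRPS33 at 107.4 and 91.5 RPM against 110.0 or more. NDUFV3 was at 42.3 RPM in liver against 46.9 or more, and MRPS17 at 85.0 RPM in stomach against 91.1 or more.

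The highest against primed cells in liver were MRPS18A (156.7 RPM, 1.70-fold, above the PSC maximum of 134.7), MRPL37 (234.8 RPM, 1.62-fold), MRPL24 (109.5 RPM, 1.57-fold), MRPS10 (140.9 RPM, 1.54-fold) and MRPL2 (69.8 RPM, 1.49-fold). In stomach they were MRPS18C (96.3 RPM, 1.30-fold), MRPL20 (172.2 RPM, 1.26-fold), MRPS10 (112.2 RPM, 1.23-fold), MRPL9 (154.0 RPM, 1.12-fold) and MRPL37 (152.9 RPM, 1.06-fold). The median difference from primed over the 5 complex I genes found by Name was -0.68 in liver and -0.42 in stomach. All genes had medians of -0.30 and -0.19, and the large mitoribosomal subunit had 0.36 and -0.03. Of these 5 complex I genes 3 lay below the PSC range in liver and 2 in stomach. Of the 2 complex I genes found by gene ID 0 lay below it in either library. MRPL39, NDUFA5 and NDUFB5 remained below the PSC range in both somatic libraries under quantile normalization and with libraries centred on their median. In liver these scalings left 3 genes below the range, and put 4 and 7 above it.

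**Figure D4:**
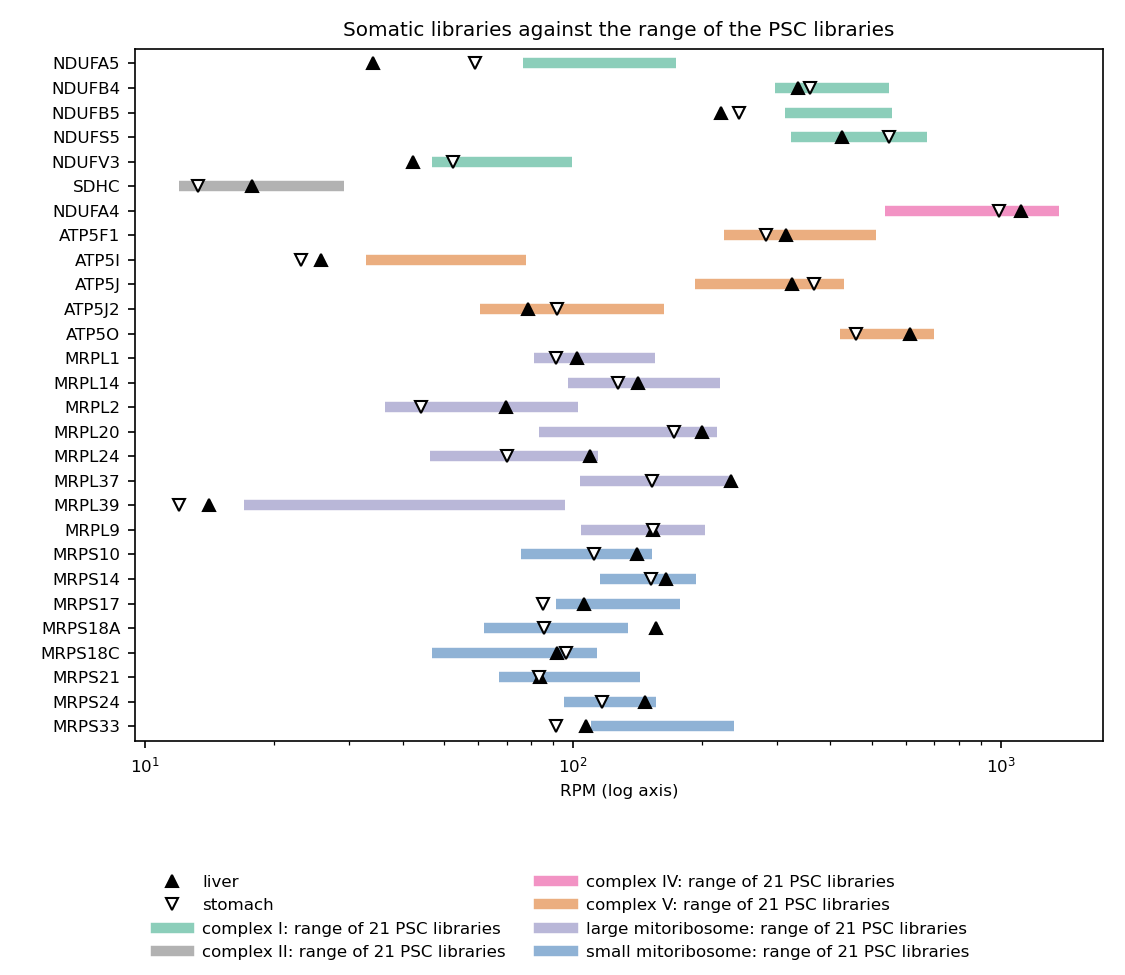
RPM (log axis) of the 28 genes in the liver (filled triangles) and stomach (open triangles) libraries, over bars that span the lowest to the highest of the 21 PSC libraries. NDUFA5, NDUFB5, ATP5I, MRPL39 and MRPS33 lie to the left of their bars in both somatic libraries, and MRPS18A in liver is the 1 symbol to the right of its bar.

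Among the genes found by gene ID, NDUFAF4 and UQCRH lay below the PSC range in both somatic libraries and MRPL3 in liver alone (51 RPM against 60.2 or more). MRPS6 lay below in stomach alone. NDUFAF3 lay above it in both, at 137.9 and 118.0 RPM against at most 99.9. COX7A2, a complex IV subunit, was above the range in stomach alone, at 464.1 RPM against at most 462.0, a maximum set by the primed TRSK library, and UQCRC1 was at 324.0 RPM in stomach against at most 315.3.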

How the data were processed

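Total RNA (1 ng per library) was profiled by SC3-seq as 75 bp single reads. Per the submitters' processing notes, tools were cutadapt 1.3, TopHat 1.4.1 and Cufflinks 2.2.0. The authors deposited RPM values, obtained by dividing mapped reads by each library's total, in 23 columns, 1 for each library. Between 24.8% and 27.5% of each library's RPM lay in the 8415 genes analysed here, and 1 row that lacked values was left out. Between 87.4% and 93.0% of the values above 0 were whole multiples of 1 step (within 0.02 reads), too few to recover counts, so no count model was fitted. Depth was read from this step. A level of 3 reads was 0.376 to 3.49 RPM, which covers counting error only.

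Values were taken as log2(RPM + 1), so folds of low genes are understated. Genes above 4 in at least 1 of 21 PSC libraries (2776) were fitted with limma 3.58.1 in R 4.3.3, with a mean-variance trend and Benjamini-Hochberg adjustment. Because the media share the 7 lines, a replicate block for cell line was fitted as an alternative. Deviations from the medium means correlated on average by 0.269 within lines (21 pairs, lowest 0.0304) and by -0.0842 between lines. No 2 libraries were identical. Nothing says that the libraries came from repeat cultures, so p-values measure the spread between lines. On simulated data for naïve-like against primed (2776 genes), the fit recovered 24 of 100 genes changed by 0.5 and 73 of 100 changed by 1, with 5 false calls, and in a comparison without changed genes it made 0 calls.

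The genes and lists were chosen with earlier results of these data known. The genes named are all members called in a comparison, the most abundant of each group, those followed by RT–qPCR, isoform genes of which only COX7B2 was analysed here, the 5 highest and lowest against primed in each somatic library, the members not called, and called genes of 5 lists of other mitochondrial genes. Values for genes just under the threshold or called with the block, for genes found by gene ID that were not called, and for MRPS33 and MRPS14 between ESC and iPSC lines were added after they were seen. Gene IDs were matched to RefSeq annotation of T2T-MFA8v1.1 for names only (27 of 28 matched). The values of 1 gene found by gene ID are not reported here, though it is in the counts. No coordinates or sequences were taken from it because the files use another build. Summaries and figures were made with Python 3.11.15, numpy 2.4.6, pandas 2.3.3 and matplotlib 3.10.9. Alternatives were another pseudocount (0.1), no filter, a filter of 7 libraries, quantile normalization, centring, no trend, array weights, the block, 2 conditions in the fit, each line left out and, added after the data were seen, the block with centring.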

Additional observations from a re-analysis of the deposited data

Results flagged for a closer look

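A library was set apart where its gap to the nearest of the other libraries of its group of 7, as a share of the group's range on the log2(RPM + 1) scale, exceeded 0.568. Of 150 groups, 10 had such a library, where chance gives about 7.5, and no cause was tested. In primed cells TRSK was highest for NDUFB2 (454.7 RPM against a median of 223.7, gap 0.694) and COX7A2 (462.0 RPM against a median of 246.5, gap 0.678) and lowest for MRPL3 (60.2 RPM, gap 0.688). Primed CMK6 was lowest for ATP5J (226.4 RPM, gap 0.706), primed S12 for MRPS18A (62.0 RPM, gap 0.683) and primed S6 for SDHC (12 RPM, gap 0.674). Naïve-like CMK6 was highest for MRPL9 (203.2 RPM, gap 0.617) and lowest for NDUFB4 (297.4 RPM, gap 0.595), and naïve-like TRSK was highest for MRPL2 (102.7 RPM, gap 0.591). Differentiated CMK6 was highest for MRPL9 (168.4 RPM, gap 0.683). MRPL3 had whole reads in 0 of the 23 libraries and COX7A2 in 14, whereas NDUFB2 was whole in all 23. MRPL2 kept its call on conversion without TRSK.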

How the results depend on the processing

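No gene called changed direction under any alternative. Of the single-gene calls of the 28 genes and those found by gene ID, 116 of 140 under other settings and 68 of 98 with a line left out still passed for naïve-like against primed, 99 of 110 and 43 of 77 for differentiated against naïve-like, and 20 of 20 and 14 of 14 for differentiated against primed. On conversion 5 members were called with centring, 5 without the mean-variance trend and 5 with 2 conditions in the fit, in place of 8, and 3 to 7 with a line left out. On withdrawal 3 were called without the filter in place of 5, and 1 to 4 with a line left out. Between differentiated and primed cells 2 to 4 were called with a line left out. With the replicate block of cell lines the counts were 10, 6 and 4 in place of 8, 5 and 2, and with the block and centring together 6, 4 and 2. The block ended no call among these. The interaction gave 0 calls among the 28 genes under each alternative run for it, and was not run with 2 conditions in the fit. By the median over genes the large-subunit change on withdrawal was -0.20 in place of -0.38. Liver genes below the PSC range numbered 3 by quantile normalization and 3 by centring in place of 6, and those above it 4, 7 and, against primed libraries alone, 5 in place of 1. Over all genes the shares were 16.5% and 18% below in place of 25.9%, and 15.9%, 18.9% and 18% above in place of 11.5%. The causes were not tested. The shallowest libraries, with 860533 to 942028 reads (primed and naïve-like L6, differentiated L3 and S6), limit the precision of low genes such as SDHC and MRPL39.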
